A study of Mus musculus and Homo sapiens with 20 samples.

Results

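Mouse hepatocytes that were vitamin B2 deficient and had received Cre adenovirus were compared with hepatocytes that had received neither, to ask whether the joint change in chromatin accessibility equals the sum of the 2 single changes. The comparison uses 6 of the 20 libraries of the series, chosen by their titles: 3 labelled B2_minus_Ad_Cre and 3 labelled Cont_Ad_Cont. The single changes come from 6 further hepatocyte libraries, 3 labelled B2_minus_Ad_Cont (deficient, control adenovirus) and 3 labelled Cont_Ad_Cre (not deficient, Cre adenovirus), so 12 libraries in 4 groups enter the fit. The other 8 libraries of the series are from HepG2 cells and were not used. All 12 hepatocyte libraries carry the label AhR_flox, an Ahr gene flanked by sites at which Cre recombinase cuts, and Ad is read here as adenovirus. All carry the label of 4 weeks, and all were made by ATAC-seq from cultured cells, so the Cont_Ad_Cont group is not untouched tissue: its cells are AhR_flox and had a control virus too. The labels do not say whether B2 was withheld from the animals or from the medium, which stretch of Ahr is flanked, what share of the cells took up the virus, or whether replicates came from separate animals or cultures. The p-values here therefore speak only to variation among these libraries, part of which may be technical.

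Vitamin B2, riboflavin, is the precursor of flavin mononucleotide and flavin adenine dinucleotide, cofactors of many oxidoreductases in the liver. AhR is a transcription factor that binds small aromatic ligands, enters the nucleus, pairs with Arnt and recognises DNA with the core letters GCGTG; in liver it is best known for inducing cytochrome P450 genes of the Cyp1 family. In ATAC-seq a transposase inserts sequencing adapters where DNA is not wrapped tightly, so the number of tags at a site reads how open it is, and not how much RNA the neighbouring gene makes. Each region below is named after the nearest protein-coding gene, which is a statement about position only.

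A region called changed in the joint comparison overlapped a promoter window of RefSeq (GRCm38.p6, the mm10 build; 250 bases before to 50 after a start) for 6 of the genes described below. The 250 bases before each start are shown to place the letters of the AhR core beside the regions whose tags are given. They are printed 5′ to 3′ on the gene's strand, with GCGTG or its complement and TGACTCA (the AP-1 motif) or its complement in capitals. Regions over Gsta2 (chr9:78347146-78347395, minus strand), Tdo2 (chr3:81975729-81975978, minus strand) and Pir (chrX:164269181-164269430, plus strand) were higher, and regions over Lrat (chr3:82903975-82904224, minus strand), Phgdh (chr3:98339970-98340219, minus strand) and Por (chr5:135688895-135689144, plus strand) lower.
Gsta2: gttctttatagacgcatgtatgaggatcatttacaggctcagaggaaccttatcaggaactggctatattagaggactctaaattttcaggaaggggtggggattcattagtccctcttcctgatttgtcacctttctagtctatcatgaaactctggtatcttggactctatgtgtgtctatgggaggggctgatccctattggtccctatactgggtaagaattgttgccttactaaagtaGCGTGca
Tdo2: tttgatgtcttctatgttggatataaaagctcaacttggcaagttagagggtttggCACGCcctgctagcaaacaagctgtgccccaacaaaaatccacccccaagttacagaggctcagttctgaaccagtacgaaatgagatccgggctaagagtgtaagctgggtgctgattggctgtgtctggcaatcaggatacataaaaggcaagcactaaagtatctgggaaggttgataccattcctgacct
Pir: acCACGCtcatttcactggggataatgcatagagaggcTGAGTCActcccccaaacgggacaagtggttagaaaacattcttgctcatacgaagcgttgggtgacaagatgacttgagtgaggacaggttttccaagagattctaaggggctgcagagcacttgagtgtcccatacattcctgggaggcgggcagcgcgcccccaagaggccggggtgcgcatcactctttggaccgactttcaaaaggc
Lrat: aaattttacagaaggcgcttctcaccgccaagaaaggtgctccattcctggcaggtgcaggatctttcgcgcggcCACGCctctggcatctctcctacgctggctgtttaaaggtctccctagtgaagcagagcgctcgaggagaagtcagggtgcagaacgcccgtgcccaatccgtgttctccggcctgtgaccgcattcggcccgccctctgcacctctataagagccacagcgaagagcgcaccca
Phgdh: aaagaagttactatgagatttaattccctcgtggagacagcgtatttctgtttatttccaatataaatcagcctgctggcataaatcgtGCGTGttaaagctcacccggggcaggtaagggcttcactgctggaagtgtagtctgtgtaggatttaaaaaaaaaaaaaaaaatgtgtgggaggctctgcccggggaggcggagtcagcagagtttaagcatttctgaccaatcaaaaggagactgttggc
Por: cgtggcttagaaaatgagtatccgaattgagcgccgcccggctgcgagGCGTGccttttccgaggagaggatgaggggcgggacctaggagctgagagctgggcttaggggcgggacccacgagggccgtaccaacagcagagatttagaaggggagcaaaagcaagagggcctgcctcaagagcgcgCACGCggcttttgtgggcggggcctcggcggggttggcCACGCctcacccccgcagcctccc
All 6 windows held the AhR core at least 1 time, Por 3 times, in the higher and the lower genes alike, and Pir also held the AP-1 letters. In 5 of the windows every capitalised run lay inside the called region; in Pir both runs lay outside it, upstream. That is a description of letters, common in windows of this kind. GCGTG, on either strand, was in 38.5% of all 21263 RefSeq windows and in 53.7% of the 11893 windows that a tested region overlapped. It was in 18 of the 34 windows overlapped by a region called higher (52.9%) and in 28 of the 54 overlapped by one called lower (51.9%). TGACTCA, a motif that does not overlap GCGTG, was, on either strand, in 4.66% of all windows, 3.77% of those overlapped by a tested region, 1 of the 34 and 2 of the 54.

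The 6 libraries listed 200698 to 265511 peaks, holding 3897632 to 4926785 tags, and over all 12 libraries the peaks numbered up to 281141 and the tags up to 5557678. B2_minus_Ad_Cre libraries listed 226048 ± 15675 peaks (SD, n = 3) and Cont_Ad_Cont libraries 230862 ± 32639, with p = 1 by an exact two-sided permutation test ( 3 against 3 can reach 0.1 at best). Regions near all 10 hepatocyte markers were open in every library, and their summed tags were 2882 to 2954 in Cont_Ad_Cont and 2843 to 2968 in B2_minus_Ad_Cre. The lowest listed count was 6 to 8 tags, depending on the library, so a site missing from a list is not shown to be closed.

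Ahr itself, the floxed gene, lies at chromosome 12, 35497979 to 35534989, and gives no clean check of the labels in these data. Of 32 regions over the gene, 7 were listed in all 12 libraries, and with 2 more within 50 kb they made 9 tested regions, none of which was called in the joint change (smallest adjusted p 0.282, edgeR quasi-likelihood test). The region at an end of the gene (35534948 to 35535212) held 71.8, 70.7 and 76.7 scaled tags in the Cont_Ad_Cont libraries and 69.9, 66.1 and 65.3 in the B2_minus_Ad_Cre libraries. All B2_minus_Ad_Cre values there were below all Cont_Ad_Cont values, but the log2 change of -0.12 ± 0.10 (SE) had an adjusted p of 0.602. The largest joint difference of the 9 was positive, outside the gene (35459787 to 35460099): 32.0, 28.9 and 32.4 scaled tags in Cont_Ad_Cont and 39.6, 37.4 and 40.8 in B2_minus_Ad_Cre, with means of 43.1 in B2_minus_Ad_Cont and 46.3 in Cont_Ad_Cre. Those groups did not overlap either. Across all tested regions, 18.1% had no overlap between Cont_Ad_Cont and B2_minus_Ad_Cre. Neither the joint log2 difference of 0.34 ± 0.15 (SE, adjusted p = 0.282) nor that of Cre alone, 0.55 ± 0.15 (SE, adjusted p = 0.222), passed. Between Cont_Ad_Cont and B2_minus_Ad_Cre, no region over the gene was listed in all 3 libraries of one group and none of the other. A weak region at 35531670 to 35532019 was listed in 2 of 3 Cont_Ad_Cont, 3 of 3 B2_minus_Ad_Cont, 1 of 3 Cont_Ad_Cre and 0 of 3 B2_minus_Ad_Cre libraries, with 9 to 12 tags where listed, near the lowest listed counts. Another, at 35501414 to 35501876, was listed in 2, 2, 3 and 0 libraries of the same groups, with 6 to 11 tags. Both were singled out after their values were seen, and whether either lies in the flanked stretch is not known from the labels.

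Of 642948 regions formed from overlapping peaks, the 101575 that all 12 libraries listed were tested, which leaves out any site that 1 or more lists lack. In the joint change, 1286 of the 101575 were called (1.27%, edgeR quasi-likelihood test, Benjamini-Hochberg adjusted p under 0.05): 576 were higher (0.567%) and 710 lower (0.699%) in the deficient, Cre-treated cells. Changes were of moderate size. The regions called higher had a median log2 fold change of 0.66 and those called lower -0.84, on the scale of scaled tags, the highest peak count of a region divided by the relative library size. Median levels went from 26.1 scaled tags in Cont_Ad_Cont to 41.7 in B2_minus_Ad_Cre for the regions called higher, and from 29.8 to 16.4 for those called lower. The 3 values of each group did not overlap in 18358 regions (18.1%), far more than were called. Of the regions called higher 12.3% were within 1 kb of an end of a gene, of those called lower 13.7%, and of those not called 21.8%. Of the lower regions, 21.0% were more than 50 kb from any protein-coding gene, against 9.72% of the higher ones and 9.87% of those not called. These shares are descriptions and were not tested.

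The count of calls in the joint change rests on how the spread is estimated. Replicates differed by less than Poisson sampling would give (chi-square per region 0.595 to 0.620 over the 12 replicate pairs), and the fit used lets the variance fall below Poisson. With the variance bounded at Poisson 27 regions were called, all 27 among the 1286, and the DESeq2 Wald test called 0 (2662 at an unadjusted p under 0.05). Leaving out 1 library gave 370 to 718 calls, the fewest without B2_minus_Ad_Cre replicate 3. With library sizes taken from the listed tags, 63.1% of 1155 calls were higher, against 44.8% here, so the balance of rises and falls depends on the scaling. Among the 58 regions named below as called, 9 passed with the bounded variance: those of Mical3, Pdlim5, Stab2, Gsta2, Cit, Magi1, Unc5a, Cd180 and Lmln.

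**Figure D1:**
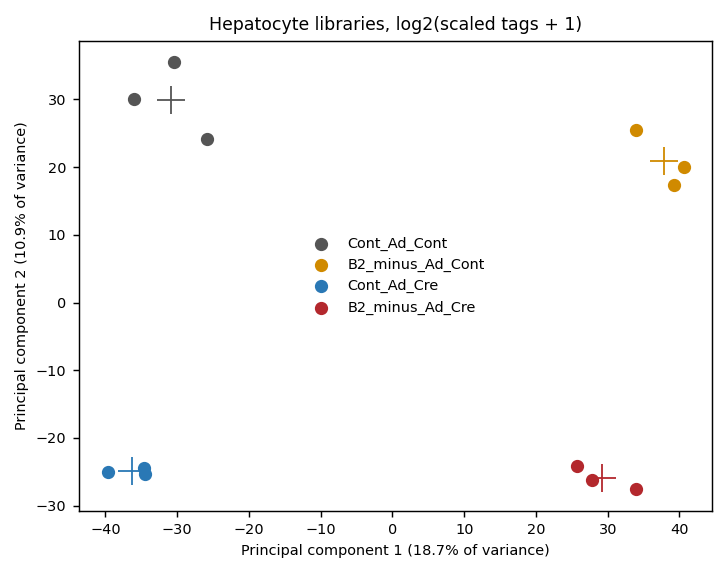
Principal components of log2(scaled tags + 1) over the 101575 tested regions, 1 point a library and a cross at each group's mean; the axes give component scores. The first component (18.7% of the variance) parts B2_minus from Cont libraries and the second (10.9%) parts Ad_Cre from Ad_Cont libraries, so the joint comparison runs across the diagonal.

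On the plot of the 12 libraries each of the 4 groups took a corner of its own. The third component (8.43%) set replicates 2 and 3 of B2_minus_Ad_Cont at opposite ends, at -59.9 and 48.0, with all other libraries between them. Those 2 libraries do not enter the joint change directly, and without them it gave 1309 calls, an alternative chosen after the data were seen.

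The 12 largest rises were taken among regions with a mean of at least 10 scaled tags in the lower group. Each was about 2-fold, and they began from means of 10.5 to 20.7 scaled tags, so the lower bound is set by that choice. A called region inside Gabbr2 rose by more, a log2 change of 1.20, but began at a mean of 8.11 and is not among them. Mical3 encodes a flavin-dependent monooxygenase of the family that oxidises actin, and its region (chromosome 6, 121173585 to 121173889, at an end of the gene) held 17.7, 17.9 and 15.1 scaled tags in the Cont_Ad_Cont libraries and 44.8, 36.4 and 35.4 in the B2_minus_Ad_Cre libraries. Every deficient, Cre-treated library was thus above 2 times the mean of the Cont_Ad_Cont libraries, 16.9, and the log2 change was 1.19 ± 0.19 (SE; adjusted p = 0.000113). Its means were 32.4 in B2_minus_Ad_Cont and 18.2 in Cont_Ad_Cre, so deficient cells were high with either virus. Stab2, a hyaluronan scavenger receptor of liver sinusoidal endothelium, had the same order: its region (chromosome 10, 86872164 to 86872567, inside the gene) held 18.8, 22.9 and 20.5 scaled tags in the Cont_Ad_Cont libraries and 40.7, 48.8 and 41.7 in the B2_minus_Ad_Cre libraries, with means of 44.1 in B2_minus_Ad_Cont and 21.6 in Cont_Ad_Cre. Pdlim5, a PDZ and LIM domain scaffold, had a region 43904 bp outside the gene that held 16.6, 15.9 and 17.3 scaled tags in the Cont_Ad_Cont libraries and 36.5, 38.3 and 36.3 in the B2_minus_Ad_Cre libraries, and here both single groups were in between, at 28.3 in B2_minus_Ad_Cont and 22.2 in Cont_Ad_Cre.

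Mtor, the kinase at the centre of nutrient sensing, had a region inside the gene (chromosome 4, 148472758 to 148473071) with 8.84, 15.9 and 10.8 scaled tags in the Cont_Ad_Cont libraries and 26.1, 24.9 and 29.0 in the B2_minus_Ad_Cre libraries. Bnip3l, a receptor that marks mitochondria for removal, had one 11833 bp outside the gene (chromosome 14, 66973043 to 66973405) with 9.95, 9.95 and 14.0 scaled tags in the Cont_Ad_Cont libraries and 28.2, 26.8 and 22.7 in the B2_minus_Ad_Cre libraries. Both rose, by a log2 change of 1.16 ± 0.24 and 1.19 ± 0.25 (SE), without overlap, which the choice of the 12 required. At Megf11, a membrane protein with EGF-like repeats, the means were 11.6 in Cont_Ad_Cont, 14.8 in B2_minus_Ad_Cont and 22.3 in Cont_Ad_Cre, and 24.4 in B2_minus_Ad_Cre, so the Cre group lay nearer to the joint group. The test of B2_minus_Ad_Cont against Cont_Ad_Cre there gave a log2 difference of -0.60 ± 0.23 (SE, adjusted p = 0.13), which did not pass. The remaining rises were near Pik3c2b (a class II phosphoinositide kinase), LOC108168726, Larp4b (an RNA-binding protein), Stip1 (a co-chaperone of Hsp70 and Hsp90), Ubd (a ubiquitin-like protein) and Gata4 (a transcription factor). Over the 12, the joint log2 change was 1.07 to 1.19, and the adjusted p ran from 0.000113 to 0.00759. The regions of Stip1, Gata4 and Megf11 lost their call without at least 1 library.

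**Figure D2:**
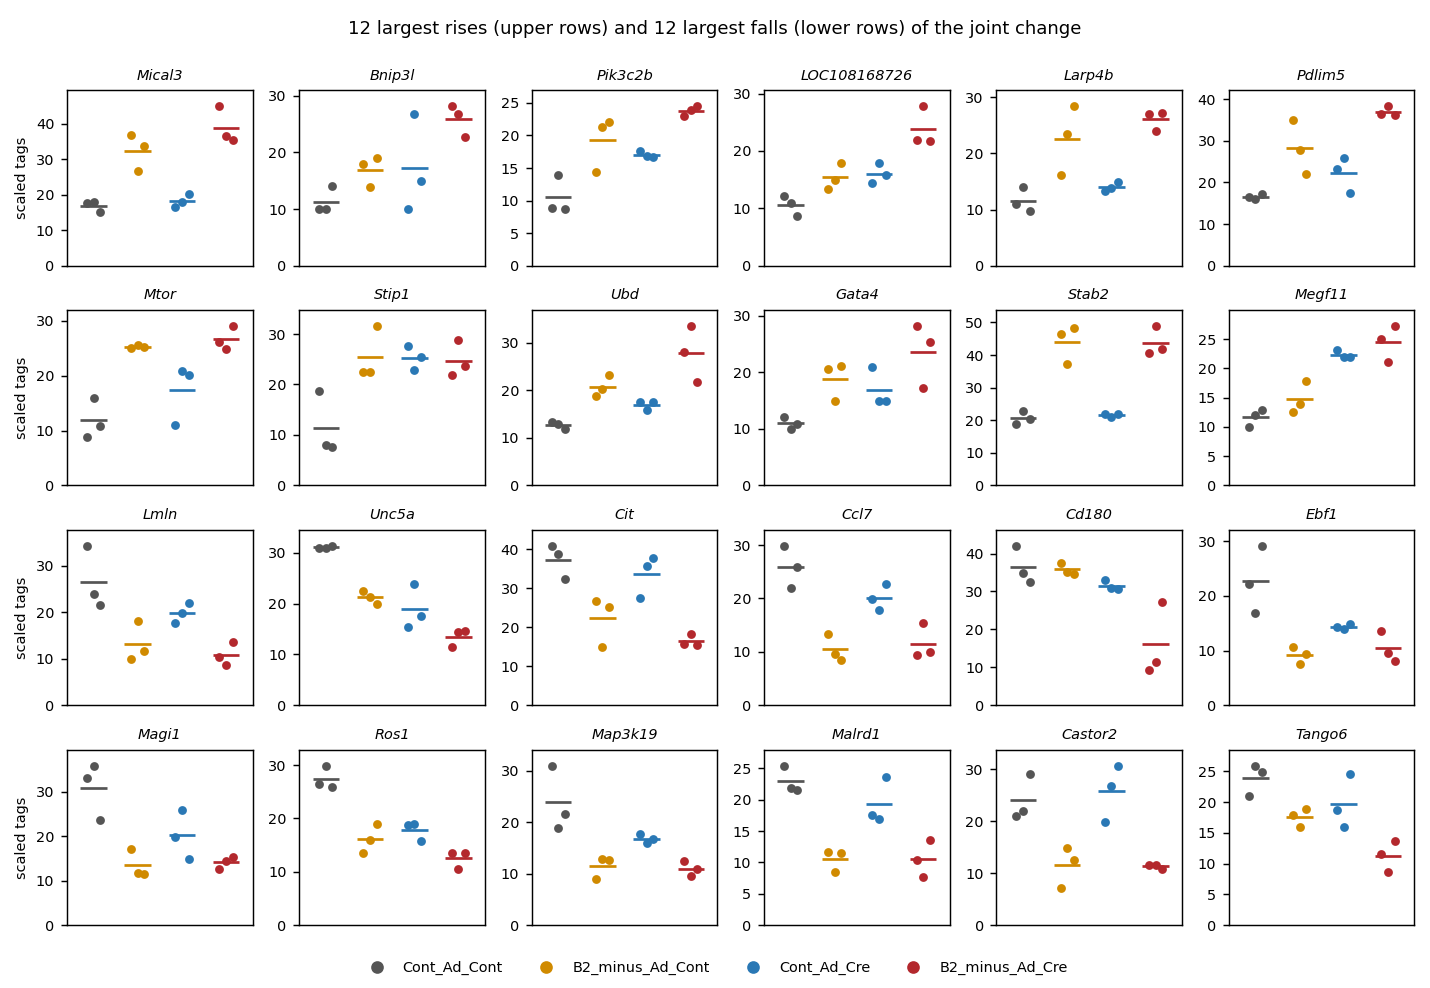
Scaled tags (y axis, from 0) in each of the 12 libraries for the 12 regions with the largest rise and the 12 with the largest fall, 1 panel a region; points are libraries, lines group means, colours groups. In each panel the Cont_Ad_Cont (grey) and B2_minus_Ad_Cre (red) points do not overlap, which the choice of regions required; the single groups (orange, blue) lie between them in many panels, while for Stip1 both lie level with the red points and for Cd180 both lie level with the grey ones.

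Among regions that kept a mean of at least 10 scaled tags in the lower group, the 12 largest falls began from means of 22.7 to 37.4 scaled tags and ended at 10.4 to 16.4. Ccl7, a chemokine that draws monocytes, had a region at an end of the gene (chromosome 11, 82045483 to 82045795) with 29.8, 21.9 and 25.9 scaled tags in the Cont_Ad_Cont libraries and 9.39, 15.3 and 9.97 in the B2_minus_Ad_Cre libraries. The joint group was low in all 3 libraries, the log2 change was -1.15 ± 0.24 (SE, adjusted p = 0.00308), and the means of the single groups were 10.5 in B2_minus_Ad_Cont and 20.2 in Cont_Ad_Cre. Cit, citron kinase of cell division, had a region at an end of the gene (chromosome 5, 115845017 to 115845314) with 40.9, 38.8 and 32.4 scaled tags in the Cont_Ad_Cont libraries and 15.6, 18.2 and 15.4 in the B2_minus_Ad_Cre libraries. Its means were 22.4 in B2_minus_Ad_Cont and 33.7 in Cont_Ad_Cre, so the joint group was below both. Unc5a, a netrin receptor, had a region inside the gene (chromosome 13, 54955771 to 54956343) with 30.9, 30.9 and 31.3 scaled tags in the Cont_Ad_Cont libraries and 11.5, 14.4 and 14.5 in the B2_minus_Ad_Cre libraries. Here both single groups were lower too, at 21.2 in B2_minus_Ad_Cont and 18.9 in Cont_Ad_Cre.

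Cd180, a Toll-like receptor relative of B cells and macrophages, had a region 35054 bp outside the gene (chromosome 13, 102657722 to 102658493) with 42.0, 34.8 and 32.4 scaled tags in the Cont_Ad_Cont libraries and 9.39, 11.5 and 27.2 in the B2_minus_Ad_Cre libraries. Replicate 3 of the joint group stood well above the other 2: without it the log2 change went from -1.15 to -1.79. With any 1 library of the comparison left out the change ran from -1.79 to -0.89. Neither single group was low there, at 35.8 in B2_minus_Ad_Cont and 31.5 in Cont_Ad_Cre. Lmln, a metallopeptidase, had the largest fall of the 12, -1.27 ± 0.24 (SE; means 26.6 ± 6.75 and 10.9 ± 2.52, SD, n = 3). The other falls were near Ebf1 (a B cell transcription factor), Magi1 (a scaffold of cell junctions), Ros1 (a receptor tyrosine kinase), Map3k19 (a kinase), Malrd1, Castor2 (of the family of arginine sensors upstream of mTOR) and Tango6 (a protein of Golgi organisation). Over the 12 falls the log2 change ran from -1.27 to -1.09, and 10 of the 12 regions were inside a gene. Falls of similar size at Flt1, Irf1 and Spp1, given below with their lists, ended under a mean of 10 and are not among the 12. Ebf1, Map3k19, Malrd1, Castor2 and Tango6 lost their call without at least 1 library.

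Lists of genes were read at all tested regions within 50 kb of their members, beside all regions within that distance of a protein-coding gene, of which 520 of 91469 were called higher and 561 lower, with a median log2 change of 0.00. Lists hold few calls each, and no list is called particular from them. Among 20 AhR genes and targets, 150 regions gave 4 higher and 1 lower, with a median of 0.01; the medians of the same regions were 0.06 for deficiency alone and 0.02 for Cre alone. Gsta2, a glutathione transferase, held 24.3, 29.9 and 22.7 scaled tags in the Cont_Ad_Cont libraries and 52.2, 46.9 and 49.0 in the B2_minus_Ad_Cre libraries (chromosome 9, 78347083 to 78347345, at an end of the gene). This was the clearest of the list, without overlap and with a log2 change of 0.94 ± 0.15 (SE, adjusted p = 0.000113). Its means were 49.1 in B2_minus_Ad_Cont and 26.5 in Cont_Ad_Cre, so each Cre group lay close to its control-virus partner, and the departure from the sum of single changes was -0.04 (95% interval -0.47 to 0.39). Regions near Htatip2 (0.59 ± 0.14, SE) and inside Itpr1, a calcium channel of the endoplasmic reticulum (0.54 ± 0.15, SE), also rose, the latter at a second region inside the gene too. With 1 of the 6 libraries left out in turn, Gsta2 kept its call in 6 of 6 fits, Htatip2 in 3 and Itpr1 in 1. Lrat, which esterifies retinol, fell: its region at an end of the gene held 24.3, 23.9 and 31.3 scaled tags in the Cont_Ad_Cont libraries and 10.4, 17.2 and 17.2 in the B2_minus_Ad_Cre libraries, a log2 change of -0.81 ± 0.22 (SE, adjusted p = 0.0395) that lost its call without any 1 of the 6 libraries.

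The riboflavin list (transport and flavin cofactor synthesis, 39 regions near 9 genes) and the list of 25 mitochondrial flavoprotein dehydrogenases (119 regions) had no call in either direction, with medians of 0.07 and 0.09. Gsr and Por, from other lists, are given because they were called, so they do not speak for flavin-dependent enzymes as a group. Gsr, the flavin-dependent glutathione reductase, rose near the gene (33.9 to 49.2 mean scaled tags, 0.54 ± 0.14, SE). Por, which passes electrons to cytochromes P450 through its flavins, fell at the region over the window shown above (106 to 87.4, -0.28 ± 0.08, SE). Each lost its call without any 1 of the 6 libraries (adjusted p up to 0.131 for Gsr and 0.191 for Por). The NRF2 list had 2 higher and 0 lower of 225 regions; the other was Pir, an iron-binding nuclear protein, at an end of the gene (0.50 ± 0.13, SE; call kept in 2 of 6 fits with 1 library left out; means 39.8 ± 7.36 and 55.6 ± 4.62, SD, n = 3).

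The list of fatty acid and triglyceride synthesis had 3 higher and 0 lower of 318 regions, near Scd1, Plin2 and Fads1, with a median of 0.03. Scd1, the desaturase that makes oleate, had a region 8512 bp outside the gene (chromosome 19, 44416221 to 44416503) with 49.7, 46.8 and 42.1 scaled tags in the Cont_Ad_Cont libraries and 79.3, 74.7 and 63.5 in the B2_minus_Ad_Cre libraries. All joint values were above all Cont_Ad_Cont values, at a log2 change of 0.64 ± 0.11 (SE, adjusted p = 0.000221), with means of 61.5 in B2_minus_Ad_Cont and 51.7 in Cont_Ad_Cre. The call held without each of the 6 libraries in turn, whereas those of Plin2, a lipid droplet coat protein (1.06 ± 0.26, SE), and Fads1, a fatty acid desaturase (0.87 ± 0.24, SE), did not. Fatty acid oxidation and ketogenesis had 1 higher and 1 lower of 185 regions: Pdk4, which restrains pyruvate oxidation, at 0.42 ± 0.12 (SE), and the coactivator Ppargc1a at -1.01 ± 0.25 (SE), which kept their calls in 1 and 3 of 6 fits with 1 library left out. The 157 regions of cholesterol synthesis and uptake had no call. Glycolysis and gluconeogenesis had 1, in the glycogen phosphorylase gene Pygl (0.45 ± 0.11, SE), and hepatocyte identity 1, over the promoter of the tryptophan dioxygenase Tdo2 (0.39 ± 0.11, SE). The bile acid and xenobiotic list had 1 higher and 3 lower of 198: near the bile acid importer Slc10a1 (0.58 ± 0.14, SE), and in or near Por, the bile acid receptor gene Nr1h4 (-0.66 ± 0.15, SE) and Cyp2b10, a P450 induced through the receptor CAR (-1.02 ± 0.26, SE). With 1 library left out, Nr1h4 kept its call in 4 of 6 fits, Slc10a1 in 3, Pygl and Cyp2b10 in 2, Tdo2 in 1 and Por in 0.

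Inflammation and acute phase had the most falls by count, 5 of 180 regions, with no rise and a median of -0.09. That is 2.78% called, against 1.18% of all regions within 50 kb of a gene, called in either direction. Smaller lists had larger shares of falls: 2 of 45 stellate marker regions and 2 of 68 cholangiocyte marker regions. Library sizes from listed tags left 3 in the inflammation list. Irf1, an interferon-induced transcription factor, had a region 14618 bp outside the gene (chromosome 11, 53755037 to 53755396) with 23.2, 23.9 and 23.8 scaled tags in the Cont_Ad_Cont libraries and 10.4, 9.58 and 9.97 in the B2_minus_Ad_Cre libraries. The libraries of each group were close to each other and far from the other group, a log2 change of -1.24 ± 0.25 (SE, adjusted p = 0.0019). Its means were 12.3 in B2_minus_Ad_Cont and 22.0 in Cont_Ad_Cre. Hp, the haemoglobin scavenger haptoglobin, fell inside the gene by 0.72 on the log2 scale, and Ccl7 is given above; the other 2 falls, singled out after their values were seen, were near Cxcl1, a chemokine for neutrophils, and at a second region near Irf1. The interferon list had 1 lower of 83 regions, near Ifnb1 (-0.91 ± 0.25, SE). YAP targets had 0 higher and 3 lower of 194, 2 near Amotl2, a regulator of the Hippo pathway (-1.08 ± 0.22, SE, for the one with the smaller p), and 1 near Sox4, a transcription factor (-0.71 ± 0.15, SE), and none within 10 kb of its genes. The integrated stress response had 2 lower of 128: Phgdh, the first enzyme of serine synthesis, at its promoter (-0.56 ± 0.16, SE), and Vldlr, a lipoprotein receptor (-0.77 ± 0.20, SE). Cell cycle and p53 had 1 lower of 109, at Ccna2, cyclin A (-0.27 ± 0.08, SE). AP-1 and immediate early genes had 2 each way of 216: 1 region near Dusp6, a phosphatase of ERK kinases, rose (1.05 ± 0.22, SE) as did 1 near Myc (0.98 ± 0.22, SE), while another near Dusp6 (-0.81 ± 0.23, SE) and 1 near the early gene Ier3 (-1.11 ± 0.26, SE) fell. Of the regions of this paragraph with a value, Irf1, Amotl2 and the rising Dusp6 region held their call without each of the 6 libraries in turn, and the others lost it without at least 1 (Ifnb1 and Phgdh without each).

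Markers of other liver cells were open too, and some regions near them moved. Summed scaled tags were 1524 to 1596 in Cont_Ad_Cont and 1592 to 1639 in B2_minus_Ad_Cre over 60 endothelial marker regions (12 of 12 genes), 1103 to 1105 in Cont_Ad_Cont and 1014 to 1085 in B2_minus_Ad_Cre over 45 stellate regions (12 of 12 genes), and 1962 to 1989 in Cont_Ad_Cont and 1822 to 1909 in B2_minus_Ad_Cre over 68 cholangiocyte regions (10 of 10 genes). For Kupffer cells and macrophages 7 of 12 genes had a tested region, with 547 to 591 in Cont_Ad_Cont and 566 to 587 in B2_minus_Ad_Cre over 21 regions, and the defining genes Clec4f, Vsig4, Adgre1, Timd4 and Cd5l had none. For lymphocytes 5 of 11 genes had one, with 435 to 483 in Cont_Ad_Cont and 453 to 482 in B2_minus_Ad_Cre over 16 regions. Endothelial markers had 2 regions higher, both inside Stab2 and next to each other, and 1 lower, in the VEGF receptor gene Flt1 (-1.26 ± 0.27, SE). Stellate markers had 2 lower, at Lrat and near the collagen gene Col1a1 (-0.54 ± 0.14, SE). Cholangiocyte markers had 1 higher, inside Prom1 (0.71 ± 0.20, SE), and 2 lower, at Spp1, osteopontin (-1.23 ± 0.28, SE), and Krt7, a keratin (-0.89 ± 0.25, SE). At Flt1 and Spp1 the joint group was at 6.35 to 7.30 scaled tags, at or next to the lowest counts listed. With 1 library left out, Stab2 and Flt1 kept their calls in 6 of 6 fits, Spp1 in 4, Prom1 and Col1a1 in 2 and Krt7 in 0. Kupffer and lymphocyte regions had no call. The part of other cells in the changes at Stab2, Lrat, Ccl7, Cd180 and Ebf1 was not tested, and in bulk libraries a change in the share of a cell type and a change within its cells cannot be told apart.

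The joint change was then set against the single changes of the same regions. All contrasts come from 1 fit, and both single changes use the same Cont_Ad_Cont libraries as the joint change, so their sizes are given side by side only. The single change of deficiency (B2_minus_Ad_Cont minus Cont_Ad_Cont) had 1058 calls of its own (1.04%) and the single change of Cre (Cont_Ad_Cre minus Cont_Ad_Cont) 6 (0.00591%). These counts moved with the settings too: leaving out 1 library gave 264 to 562 for deficiency and 0 to 4 for Cre. The variance bounded at Poisson gave 17 and 0. An additive model gave 5843 and 85, but it estimates each effect over all 12 libraries, with either level of the other treatment. Those are not the single changes, and the joint change had 1254 calls in that model. Over the 576 regions called higher in the joint change, the median log2 change was 0.66 jointly, 0.43 for deficiency and 0.28 for Cre. Over the 710 called lower it was -0.84, -0.57 and -0.20. Median levels of the regions called higher were 26.1 scaled tags with neither, 32.2 with Cre, 37.2 with deficiency and 41.7 with both. For the regions called lower the order was 29.8, 26.3, 20.0 and 16.4. Of the 58 named regions, the change was larger with deficiency alone than with Cre alone in 46; deficiency alone was called in 24 of them and Cre alone in 0.

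The departure from additivity is the joint change less the sum of the single changes, and it was called in 0 of 101575 regions (0%, edgeR quasi-likelihood test, smallest adjusted p 0.578). At an unadjusted p under 0.05 there were 5221 (5.14%), and 278 by DESeq2, whose 0 adjusted calls bear nothing on it, since DESeq2 called 0 in the joint change too. Some settings did call departures: 9 with peaks asked for in at least 3 libraries, and 1 each with the peaks of a region summed and without Cont_Ad_Cre replicate 2. In the first of these an unlisted peak entered at the lowest count of its list, so such filled values carry no measured spread. The fit without B2_minus_Ad_Cont replicates 2 and 3 left 1 library in that group, and its calls are not counted here. The absence of calls does not show that the changes add. The departure draws on all 4 groups and its median SE, 0.290, exceeds that of the joint change, 0.206. The 95% interval of the departure reached 0.57 to either side in the median region, and lay wholly within a log2 value of 1 in 81722 of the 101575 regions. Over the regions called higher the median departure was -0.08 (quartiles -0.26 and 0.07), with 214 above and 362 below 0. Over those called lower it was 0.01 (quartiles -0.19 and 0.17), with 365 above and 345 below. Of these called regions 39 and 33 had an unadjusted p under 0.05. The departure holds B2_minus_Ad_Cre and Cont_Ad_Cont with the same sign and the joint change with opposite signs, so choosing regions by the joint change leaves the departure unbiased only where both groups vary alike. The median departure over regions called higher was 0.00 with library sizes from listed tags and ran from -0.21 to -0.02 with 1 library of the comparison left out.

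**Figure D3:**
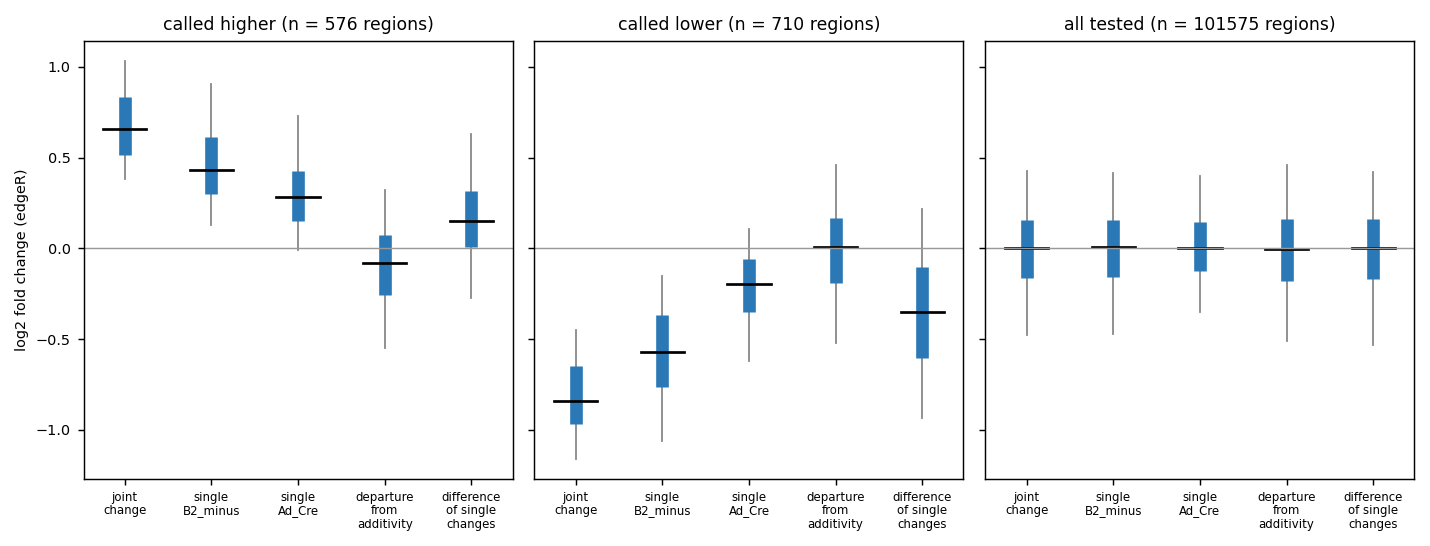
Log2 fold changes (y axis, edgeR) of 5 contrasts over the regions called higher, called lower and all tested; the black line is the median, the blue bar the quartiles and the grey line the 5th to 95th percentile. The joint medians of 0.66 and -0.84 were not tested against the single ones, which share their Cont_Ad_Cont libraries, and the departures of both called sets lie around 0 (-0.08 and 0.01).

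In single regions the sum could lie on either side of the joint change. Of the 12 largest rises, 11 had a departure interval that held 0, and of the 12 largest falls 9. For Mical3 the joint change of 1.19 stood beside a sum of 1.06, a departure of 0.13 (95% interval -0.43 to 0.68). For Ubd the joint change of 1.13 stood beside 1.12, with an interval of -0.65 to 0.65 for the departure, and for Unc5a -1.20 beside -1.25, with -0.56 to 0.67. These are close in value, yet the intervals leave room for departures of more than 0.5 on the log2 scale. Stip1 was the rise whose interval left out 0. It held 18.8, 7.96 and 7.56 scaled tags in Cont_Ad_Cont, 22.4, 22.4 and 31.6 in B2_minus_Ad_Cont, 27.6, 22.9 and 25.4 in Cont_Ad_Cre and 21.9, 28.7 and 23.6 in B2_minus_Ad_Cre. Either treatment alone went with the level that both had together, so the joint change of 1.14 stood beside a sum of 2.32 and a departure of -1.19 (95% interval -1.82 to -0.55, adjusted p = 0.823). The Cont_Ad_Cont values of 7.96 and 7.56 were at or next to the lowest listed counts of 6 to 8 tags. The value of 18.8 was nearer to the treated libraries, so the sum and the departure rest on a baseline that its libraries did not share.

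The reverse held for Cd180, where 37.6, 35.2 and 34.7 scaled tags in B2_minus_Ad_Cont and 33.1, 30.8 and 30.7 in Cont_Ad_Cre were close to 42.0, 34.8 and 32.4 with neither treatment, and only the joint group was low (9.39, 11.5 and 27.2). Its joint change of -1.15 stood beside a sum of -0.22, a departure of -0.92 (95% interval -1.44 to -0.40, adjusted p = 0.823). Over the main fit and the alternatives that gave a value, the departure ran from -1.57 to -0.67. The value of -1.57 came without B2_minus_Ad_Cre replicate 3, the joint library that was least low. Its adjusted p of 0.0524 (edgeR quasi-likelihood test) was the smallest of all these settings and did not pass. Ebf1 and Magi1 fell by less than the sum: -1.13 beside -1.92 (95% interval of the departure 0.06 to 1.53) and -1.13 beside -1.82 (0.03 to 1.35). The 12 largest falls were chosen with a mean of at least 10 scaled tags in the lower group. A region that fell much further could not be among them, so these 2 departures are a description only. Among the list genes 2 more intervals left out 0, those of Prom1 (joint 0.71, sum 0.07, interval 0.04 to 1.23) and Slc10a1 (joint 0.58, sum 0.98, interval -0.78 to -0.02). None of these 6 departures passed the adjusted test. Over all 58 called regions named here, 52 intervals held 0 and the median departure was 0.00.

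**Figure D4:**
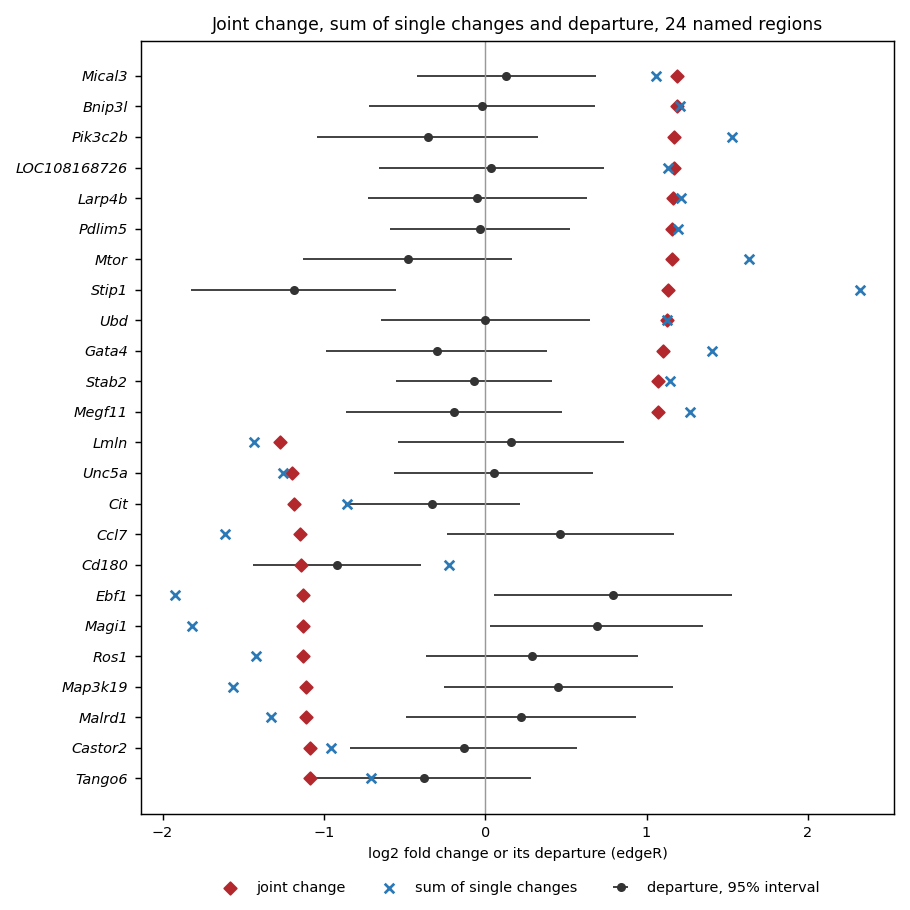
For the 24 regions with the largest rises and falls, the joint log2 change (red diamonds), the sum of the single changes (blue crosses) and their difference, the departure (black points with 95% intervals); the x axis is in log2 units. The intervals of Stip1, Cd180, Ebf1 and Magi1 lie off 0, and no departure passed the adjusted test.

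The 4 regions with the smallest p for the departure near a gene were at Ybx3, Ggcx, Smc3 and Trim14, each with an adjusted p of 0.578, and they are given as a description. Smc3, a cohesin subunit, had a region at an end of the gene (chromosome 19, 53600219 to 53601053) with 46.4, 38.8 and 46.4 scaled tags in Cont_Ad_Cont, 20.6, 23.5 and 17.9 in B2_minus_Ad_Cont, 36.4, 47.7 and 41.2 in Cont_Ad_Cre and 41.7, 33.5 and 40.8 in B2_minus_Ad_Cre. Deficiency with the control virus was low in all 3 libraries, and the level with both treatments was near that with neither: the departure was 0.97 (95% interval 0.53 to 1.40). Ybx3, a cold shock domain protein that binds RNA, had a region at an end of the gene (chromosome 6, 131388349 to 131388650) with 66.3, 69.7 and 62.6 scaled tags in Cont_Ad_Cont, 48.4, 66.1 and 61.0 in B2_minus_Ad_Cont, 46.3, 47.7 and 40.3 in Cont_Ad_Cre and 63.6, 71.8 and 57.1 in B2_minus_Ad_Cre. Here the Cre virus alone was the low group, and with both treatments the level was again near that with neither (departure 0.72, interval 0.41 to 1.03). Ybx3 was also called in the single change of Cre, which the departure subtracts.

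Trim14, an adaptor of antiviral signalling, had a region inside the gene (chromosome 4, 46507264 to 46507582) with 68.5, 70.7 and 68.0 scaled tags in Cont_Ad_Cont, 82.4, 82.1 and 89.4 in B2_minus_Ad_Cont, 80.5, 83.5 and 89.4 in Cont_Ad_Cre and 78.2, 72.8 and 63.5 in B2_minus_Ad_Cre. Ggcx, the carboxylase that uses vitamin K, had a region 6751 bp outside the gene (chromosome 6, 72407180 to 72407528) with 37.6, 27.9 and 33.5 scaled tags in Cont_Ad_Cont, 49.3, 55.4 and 41.0 in B2_minus_Ad_Cont, 40.8, 46.7 and 53.4 in Cont_Ad_Cre and 33.4, 46.9 and 33.5 in B2_minus_Ad_Cre. At both, either treatment alone was high and the combination was not, with departures of -0.54 (interval -0.80 to -0.29) and -0.89 (interval -1.28 to -0.49). In all 4 regions the joint change was small, from -0.18 to 0.21, and none was called.

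A contrast that uses neither group of the joint change is the difference of the single changes, B2_minus_Ad_Cont minus Cont_Ad_Cre. It was added after the first results were seen. It was called in 3099 regions (3.05%), 39.9% of them higher in B2_minus_Ad_Cont, a split that turned to 89.7% of 10116 with library sizes from listed tags, which moved the median of all regions by 0.157. Of the 576 regions called higher in the joint change, 45 were also higher in B2_minus_Ad_Cont than in Cont_Ad_Cre and 3 lower. Of the 710 called lower, 156 were lower and 3 higher. Of the 58 named regions 12 were called, all with the deficient group on the side of the joint level. Stab2 (1.03 ± 0.16, SE, adjusted p = 2.51e-05), Gsta2 (0.89 ± 0.15, SE, adjusted p = 4.32e-05) and Castor2 (-1.21 ± 0.24, SE, adjusted p = 0.000736) had the smallest p, and the other 9 were Mical3, Pir, Krt7, Sox4, Ccl7, Irf1, Amotl2, Malrd1 and the lower Dusp6 region. For Stip1 the difference was 0.00 ± 0.20 (SE) and for Unc5a 0.17 ± 0.22 (SE), and neither passed.

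The 6 regions called in the single change of Cre were near Raph1, Gabbr2, Ybx3, Pml, Btg1 and Traf3, and 5 of them, all but Ybx3, were also called in the joint change. Traf3, an adaptor of TNF receptor and antiviral signalling, had means of 33.6 scaled tags with neither treatment, 52.0 with deficiency, 54.7 with Cre and 54.7 with both, in a region inside the gene (chromosome 12, 111187132 to 111187404). Pml, which organises nuclear bodies, had 48.1, 35.7, 28.1 and 28.4 (chromosome 9, 58247417 to 58247681, inside the gene). In these 2 regions the mean with both treatments was close to that with Cre, and deficiency alone lay on the same side of the mean with neither. The regions were chosen by the Cont_Ad_Cre libraries, which the departure subtracts, so no departure is read from them.

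Sites that a whole group lacked fall outside the fit and were counted. In 2316 regions all 3 B2_minus_Ad_Cre libraries listed a peak and no Cont_Ad_Cont library did, and in 1582 the reverse, 1.70% and 1.24% of the regions listed in all 3 libraries of the group. Of the 2316, 528 were listed in all 3 B2_minus_Ad_Cont libraries, 435 in all 3 Cont_Ad_Cre libraries and 157 in both, while 145 were listed in no library of either single group. Of the 1582, the numbers were 165, 342, 61 and 136. The median count in these peaks was 8 tags, next to the lowest listed counts of 6 to 8, and with peaks of at least 12 tags the counts were 1461 and 749. A peak missing from a list is not shown to be absent.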

How the data were processed

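ATAC-seq peak lists of 12 mouse hepatocyte libraries were used, made with an Active Motif kit, per the labels. The submitters' processing notes name Bowtie2, HOMER and mm10, with no versions. Each deposited list gives a whole number of tags per peak, taken as a count from its values: any normalization by the authors and their peak settings are not given in the labels or file headers. Peaks on chromosomes 1 to 19 and X that overlapped by at least 1 bp were merged over the 12 lists, and a region's value is its highest peak count. Counts were fitted with edgeR 4.0.16 (R 4.3.3; TMM; quasi-likelihood, variance free to fall below Poisson; 4 groups, residual df 8), with Benjamini-Hochberg adjustment over all regions. DESeq2 1.42.0, limma 3.58.1, other scalings, filters and left-out libraries were alternatives. Counts limit precision: the median tested region held 23.3 tags, and the lowest listed count was 6 to 8. Samples were grouped by title, and shared replicate numbers did not pair them (correlation of deviations -0.016 to 0.012 over 18 same-numbered pairs). No replicate pair held identical values. Contrasts were tested on simulated counts with changes placed outside the weakest regions. A departure was recovered in 14 of 100 regions at 1.5-fold and 58 of 100 at 2-fold, with 5 false calls. Joint rises were recovered in 125 of 200 at 1.5-fold and 199 of 200 at 2-fold. Joint falls were recovered in 34 of 100 at 0.667-fold and 86 of 100 at 0.5-fold, with 27 false joint calls. With no change simulated, both contrasts gave 0 calls. The members and gene lists were chosen with earlier results of these data known. Named regions are the 12 largest rises and falls, 1 a gene, among called regions within 50 kb of a gene whose groups do not overlap and whose lower mean is at least 10; up to 3 called regions each way with the smallest p per list, with no such minimum; Ahr; and the 4 smallest departure p. No genome was given, so sequences come from RefSeq promoter windows.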

Additional observations from a re-analysis of the deposited data

How the results depend on the processing

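The direction of the joint change held in all 58 named regions under every alternative that gave a value, but the counts of calls did not hold. The 58 regions were chosen by their calls in these same counts, which the alternatives refit, so the held direction is no separate evidence. With the variance bounded at Poisson, 27 regions were called in the joint change, 17 for deficiency alone, 0 for Cre alone and 226 for the difference of the single changes. DESeq2 called 0 in each of the 5 contrasts (unadjusted p under 0.05 in 785 regions for Cre alone). With the peaks of a region summed, the calls were 25, 30, 2 and 286, and 1 for the departure, and with peaks asked for in at least 3 libraries rather than all 12 they were 40, 27, 16 and 265, and 9 for the departure. Of the 1286 regions, 27 were among the calls with the bounded variance, 15 with summed peaks, 20 with the wider filter and 1160 of 1240 with limma. Library sizes from listed tags gave 27 calls for Cre alone (3.70% higher) and 10116 for the difference. Loess offsets gave 0 for Cre alone and merging at 100 bp overlap 12. An additive model, which estimates each effect over all 12 libraries, gave 5843 for deficiency, 85 for Cre and 1254 for the joint change. Leaving out B2_minus_Ad_Cont replicates 2 and 3, an alternative chosen after seeing the data, left that group with 1 library, so no call is read from it. The departures there were 1.59 at Spred2 and 0.99 at Ybx3, the latter against 0.72 with all libraries. For Ybx3 the library kept was the lowest of its group, at 48.4 scaled tags. With peaks of at least 12 tags, 1461 and 749 regions were listed in 1 group only.

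With 1 library left out, the joint change had 370 to 718 calls, each of the 6 libraries moving it by over 1.5 times; deficiency alone had 264 to 562, Cre alone 0 to 4, the departure 0 to 1 and the difference 1370 to 1956. Of the 58 named regions 22 kept their call without each library in turn, 36 lost it without at least 1, and Gsr, Ifnb1, Krt7, Lrat, Phgdh and Por lost it without each. The replicate block gave 1292, 1051, 6, 0 and 3031 calls for the joint change, deficiency, Cre, departure and difference, so the block moved no count by over 1.5 times. The cause of these shifts was not tested. With the wider filter, where an unlisted peak entered at the lowest count of its list, the median departure over its own 13 regions called lower was 1.34, against 0.01 over the 710. Depth and the 3 libraries a group limit the departure, whose 95% interval reached 0.57 to either side in the median region.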
